A study of Bos taurus with 22 samples.

Results

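CIDEA (ENSBTAG00000046547) and G0S2 (ENSBTAG00000047766) are 2 genes of the lipid droplet, and their rows were taken by identifier from a count table of 24616 Ensembl genes measured in the subcutaneous backfat of 22 beef steers. The identifiers were paired with symbols through a table of the study. For CIDEA the NCBI gene number beside the identifier in that table is not the one RefSeq gives to CIDEA in ARS-UCD2.0, whereas for G0S2 the numbers match, so that the naming of ENSBTAG00000046547 as CIDEA rests on the study's table alone. Both genes were picked because the study listed them as DE in the Kinsella Composite steers described here, so that their values in that breed are a description of genes chosen on these animals. The steers were Angus (ANG) and Charolais (CHAR) of pedigreed herds and Kinsella Composite (KC), a herd labelled as a Hereford by Angus cross, bred from Angus, Charolais and composite sires on a composite dam line. All were fed a barley-based finishing diet, and their fat was frozen soon after slaughter. Within each breed the steers had been ranked on RFIfat (in kg), a fat-adjusted residual feed intake that gives the feed eaten beyond what growth and backfat predict, so that L-RFI steers are the feed-efficient ones. There were 4 H-RFI steers and 4 of L-RFI in both ANG and KC, and 3 of either kind in CHAR, and no treatment was given to any group. In KC the mean RFIfat was 1.28 ± 0.669 kg for H-RFI and -1.33 ± 0.436 kg for L-RFI (SD, n = 4 each), against 1.18 ± 0.364 and -0.995 ± 0.171 kg in ANG (SD, n = 4 each), and 0.837 ± 0.229 and -0.997 ± 0.0351 kg in CHAR (SD, n = 3 each). Steers are named by the number in their label.

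Fat cells store triglyceride in lipid droplets, and the proteins on the droplet surface set how large the droplets become and how readily their fat is released. CIDEA gathers where droplets touch and promotes the passage of lipid from the smaller to the larger droplet, and it is known both as a gene of thermogenic fat and as a gene of lipid storage in white fat. G0S2 binds adipose triglyceride lipase, the enzyme that starts triglyceride breakdown, and inhibits it, so that it acts as a brake on lipolysis.

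The reads counted on genes numbered from 8033008 to 12426133 a steer. CIDEA had 166 to 1134 reads per steer and G0S2 had 141 to 4761, so that counting error was at most 7.76% for CIDEA and 8.42% for G0S2 (the square root of the count over the count, which covers counting error only). Levels are given as TMM-normalized CPM, which are reads of a gene scaled to a common library size (counts per 1e6 reads on genes) after TMM scaling over all 22 steers. Both genes passed the low-count filter (CPM over 1 in 50% or more of a breed's steers) in all 3 breeds. The label of the tissue could not be checked against fat cell genes, because none of the 9 adipocyte markers chosen had an identifier with a symbol in the tables used here.

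CIDEA stood at 59.2 CPM in F1, 98.7 in F7, 73.8 in F8 and 46.9 in F9, the H-RFI steers of KC. In the L-RFI steers of KC it stood at 28.02 CPM in F10, 47.7 in F11, 41.8 in F14 and 20.2 in F16. The groups overlapped through a single pair of steers, as F11 lay just above F9, and F10, F14 and F16 were under all 4 H-RFI steers. With CPM on the total count in place of TMM this pair changed order and the groups did not overlap. The mean level was 69.7 ± 22.3 CPM for H-RFI against 34.4 ± 12.6 for L-RFI (SD, n = 4 each). The log2FC of L-RFI against H-RFI was -1.01 (standard error 0.29, 95% interval -1.66 to -0.36), with an adjusted p of 0.146 by the quasi-likelihood test of edgeR over the 13725 genes tested in KC. In an exact permutation test of log2 CPM (2-sided) the p was 0.0571, and 0.0286 with CPM on the total count, the smallest that 4 steers against 4 allow. In whole tissue, fewer cells that express a gene and less of its RNA per cell cannot be told apart.

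G0S2 stood at 96.1 CPM in F1, 414 in F7, 127 in F8 and 175 in F9 among the H-RFI steers of KC. In the L-RFI steers it stood at 81.2 CPM in F10, 82.1 in F11, 81.9 in F14 and 25.5 in F16. Every L-RFI steer lay below every H-RFI steer. F7 was far above the rest, F10, F11 and F14 were nearly equal, and F16 was far below them. The mean level was 203 ± 145 CPM for H-RFI against 67.7 ± 28.1 for L-RFI (SD, n = 4 each). The log2FC was -1.58 (standard error 0.48, 95% interval -2.66 to -0.51), and the adjusted p was 0.158 by the same edgeR test. The exact permutation test gave p = 0.0286. Without F7 the log2FC of G0S2 was -0.97 and that of CIDEA -0.79, and without F16 they were -1.31 and -0.82.

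**Figure D1:**
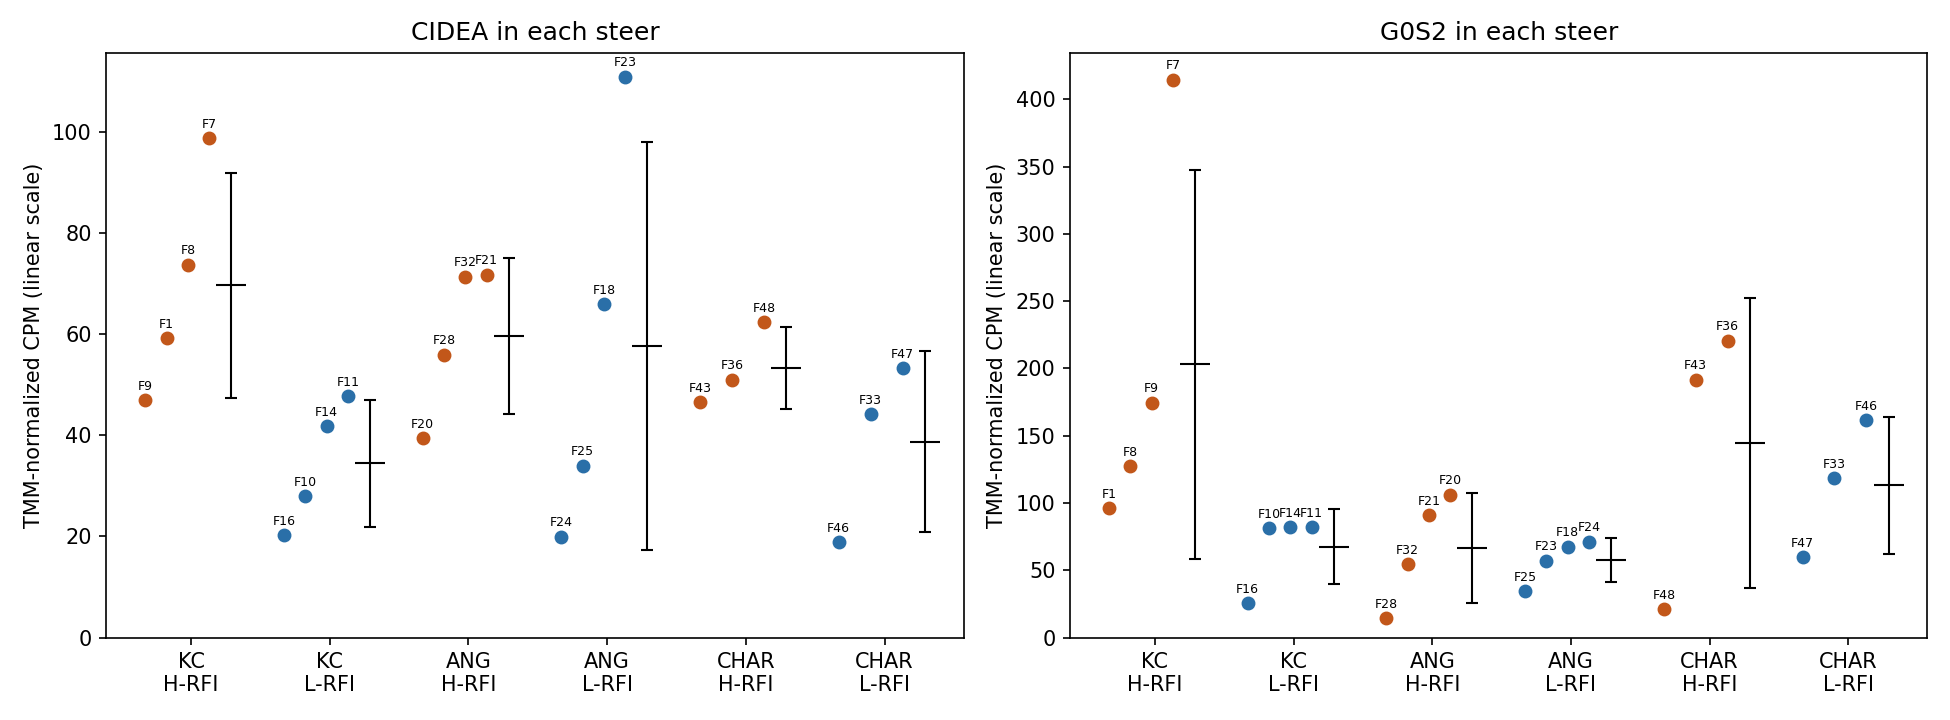
TMM-normalized CPM (linear axis from 0) of CIDEA on the left and G0S2 on the right in each of the 22 steers, by breed and RFI group, with H-RFI in orange and L-RFI in blue and the black bars at the group mean ± SD (n = 4 in KC and ANG, n = 3 in CHAR). F7 is the highest steer of KC for both genes, at 98.7 and 414 CPM, and F16 is the lowest of KC for both, at 20.2 and 25.5 CPM.

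Neither CIDEA nor G0S2 passed the cut-offs (FDR below 0.1 and absolute log2FC of at least 1) in the quasi-likelihood test in KC, where 1 of the 13725 genes did (0.00729%). Both had an unadjusted p under 0.05 in the direction of lower in L-RFI, as did 9.34% of the genes tested in that direction. Only G0S2 of the pair was without overlap between the groups, as were 5.6% of all genes in the same direction. By size of log2FC, G0S2 in KC was preceded by 0.226% of the genes tested and CIDEA by 1.04%, counted from the most negative. The call depended on the test. The exact test of edgeR called both CIDEA and G0S2 (adjusted p = 0.0373 and 0.0429) among 1.28% of the genes, and with common and tagwise dispersions it again called both (adjusted p = 0.0172 and 0.0132) among 1.29%. The likelihood ratio test of edgeR called both (adjusted p = 0.0359 and 0.0398) among 1.38% of the genes, and DESeq2 called both (adjusted p = 0.0277 and 0.0980) among 1.2%. In a fit of all 22 steers the quasi-likelihood test of edgeR called 108 genes in KC, and neither gene was among them (adjusted p = 0.171 for CIDEA and 0.160 for G0S2).

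In KC the libraries of the RFI groups also differed, and the part of this in the values of CIDEA and G0S2 was not tested. The share of reads on genes was 39.5% to 41.4% for H-RFI against 37.2% to 38.5% for L-RFI, without overlap. The share of ambiguous reads, those that fell on more than 1 gene model, was 0.303% to 0.512% in 6 libraries (F8, F10, F14, F18, F25 and F28) and 0.938% to 2.16% in the other 16. With this split as a term in the fit, a choice made after the data were seen, the KC log2FC was -1.03 for CIDEA and -1.59 for G0S2 (adjusted p = 0.234 and 0.255, quasi-likelihood test of edgeR).

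In ANG, CIDEA stood at 39.4 CPM in F20, 71.8 in F21, 56.0 in F28 and 71.4 in F32, the H-RFI steers. The L-RFI steers of ANG ran from 19.98 CPM in F24 and 34.0 in F25 to 65.9 in F18 and 111 in F23, the highest CIDEA level of all 22 steers. The L-RFI steers thus lay on both sides of the H-RFI steers, with 2 below and 1 above all of them. The means were 59.6 ± 15.3 CPM for H-RFI and 57.7 ± 40.3 for L-RFI (SD, n = 4 each). The log2FC of CIDEA was -0.05 (standard error 0.44, 95% interval -1.03 to 0.94, adjusted p = 1.0, quasi-likelihood test of edgeR), and the exact permutation test gave p = 0.60. Without F23 this log2FC was -0.57, and without F24 it was 0.24.

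G0S2 in the H-RFI steers of ANG stood at 106 CPM in F20, 91.0 in F21, 14.4 in F28 and 54.6 in F32. In the L-RFI steers it stood at 67.5 CPM in F18, 57.3 in F23, 71.3 in F24 and 34.7 in F25, all inside the range of the H-RFI steers. F28 had the lowest G0S2 level of the 22 steers while its CIDEA level was near the middle of its group. The means were 66.6 ± 41.0 and 57.7 ± 16.4 CPM (SD, n = 4 each), with a log2FC of -0.20 (standard error 0.48, 95% interval -1.27 to 0.87, adjusted p = 0.996 by edgeR's quasi-likelihood fit). The difference of mean log2 CPM had the other sign, at 0.08 (exact permutation test, p = 0.943). Without F28 the log2FC of G0S2 was -0.54, and without F20 it was 0.12. In ANG the quasi-likelihood test of edgeR called 0 of 13613 genes (0%), with 686 genes at an unadjusted p under 0.05, and DESeq2 called 32 genes, the likelihood ratio test 31 and the exact tests 28 and 46. Neither CIDEA nor G0S2 had an unadjusted p under 0.05 there, where 3.14% of the genes did so in the direction of lower in L-RFI, and neither was without overlap, as 1.63% of the genes were in that direction.

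In CHAR, CIDEA stood at 51.0 CPM in F36, 46.6 in F43 and 62.3 in F48, the H-RFI steers, and at 44.1 in F33, 18.9 in F46 and 53.3 in F47, the L-RFI steers. F46 had the lowest CIDEA level of the 22 steers, and F33 and F46 were under all 3 H-RFI steers. The means were 53.3 ± 8.11 CPM for H-RFI and 38.8 ± 17.8 for L-RFI (SD, n = 3 each), with a log2FC of -0.46 (standard error 0.34, 95% interval -1.24 to 0.33, adjusted p = 0.958 by edgeR's quasi-likelihood fit). The exact permutation test gave p = 0.300, where 3 steers against 3 allow no p below 0.1. Without F47 the log2FC of CIDEA was -0.75, and without F46 it was -0.13.

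G0S2 in CHAR stood at 221 CPM in F36, 192 in F43 and 21.2 in F48, the H-RFI steers, and at 119 in F33, 161 in F46 and 59.7 in F47, the L-RFI steers. The H-RFI group held both the highest and the lowest steers of the breed, so that the L-RFI steers lay wholly inside its range. The means were 145 ± 108 and 113 ± 51.1 CPM (SD, n = 3 each), with a log2FC of -0.35 (standard error 0.72, 95% interval -2.02 to 1.33, adjusted p = 0.981 by edgeR's quasi-likelihood fit). The difference of mean log2 CPM again had the other sign, at 0.12 (exact permutation test, p = 1.0). Without F48 the log2FC of G0S2 was -0.86, and without F36 it was 0.094. The quasi-likelihood test of edgeR called 0 of 13737 genes in CHAR (0%), with 636 at an unadjusted p under 0.05, and DESeq2 called 23 genes, the likelihood ratio test 21 and the exact tests 20 and 39. Neither CIDEA nor G0S2 had an unadjusted p under 0.05, as 2.21% of the genes did in the direction of lower in L-RFI, and neither was without overlap, as 4.95% were in that direction.

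The RFI groups of CHAR did not overlap for the smooth muscle genes ACTA2 and ACTG2 but did for DES. Both ACTA2 and ACTG2 were higher in L-RFI, and 5.33% of all genes tested in CHAR were without overlap in that direction. None of the 3 smooth muscle genes passed the test (adjusted p of 0.935, 0.948 and 0.948 by edgeR). Their part in the CIDEA and G0S2 values was not tested. Of 6 smooth muscle markers, 3 had an identifier with a symbol (ACTA2, DES and ACTG2), all from the table of DE genes that the study made from these steers, and none of the 3 was at 0 in any steer. Their summed level, of which ACTA2 was the most abundant, was 85.8, 129 and 182 CPM in the H-RFI and 211, 324 and 694 CPM in the L-RFI steers of CHAR. In KC the same sum was 196 to 431 CPM for H-RFI against 124 to 234 for L-RFI, and in ANG it was 143 to 269 against 144 to 324 CPM.

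Ordered by mean log2 CPM, CIDEA was lowest in the L-RFI steers of KC, followed by the L-RFI steers of CHAR and of ANG, and then by the H-RFI steers of CHAR, ANG and KC. In this order the L-RFI groups came before the H-RFI groups, but by mean CPM they did not, as the L-RFI steers of ANG (57.7 CPM) stood above the H-RFI steers of CHAR (53.3 CPM), and no neighbours in this order differed beyond their spread, as each gap (0.12 to 0.42 on the log2 scale) was smaller than the larger SD of the pair and the ranges overlapped each time. For G0S2 the order was H-RFI then L-RFI steers of ANG, L-RFI steers of KC, H-RFI then L-RFI steers of CHAR, and H-RFI steers of KC. Again no neighbours differed beyond their spread (gaps of 0.08 to 0.72). By mean CPM the RFI groups of ANG changed places, as did those of CHAR, and both ANG groups stood at the low end either way.

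For neither gene did the tests of breed reach the FDR limit. G0S2 had a log2FC of 1.05 in CHAR against ANG (standard error 0.46, 95% interval 0.08 to 2.01, adjusted p = 0.325) and of 0.92 in KC against ANG (standard error 0.44, 95% interval 0.01 to 1.83, adjusted p = 0.238), each averaged over the RFI groups in edgeR's quasi-likelihood test of 22 steers. CHAR and KC differed by 0.13 (standard error 0.46, adjusted p = 0.885 in the same edgeR test). For CIDEA the log2FC was -0.37 in CHAR against ANG (standard error 0.31), -0.26 in KC against ANG (standard error 0.29) and -0.11 in CHAR against KC (standard error 0.31), with adjusted p of 0.634, 0.637 and 0.850 from edgeR. The first of these was -0.11 without F23 and -0.20 without F46, and the second was 0.0018 without F23. Neither gene was called in any of these comparisons, in which 0.242%, 0.42% and 1.8% of the 14048 genes were called.

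Whether the RFI difference of CIDEA and G0S2 was particular to KC was tested as a breed by RFI interaction. Both genes were picked on these KC steers, so the differences to KC and the average over the breeds carry that choice too. They may be overstated for this reason. The interaction had an adjusted p of 0.777 for CIDEA and 0.775 for G0S2 in the quasi-likelihood F test of edgeR, which called 1 of 14048 genes (0.00712%). The log2FC of CIDEA was lower in KC than in ANG by a difference of -0.96 (95% interval -2.17 to 0.24) and lower than in CHAR by a difference of -0.55 (95% interval -1.85 to 0.75). For G0S2 these differences were -1.38 (95% interval -3.19 to 0.43) and -1.23 (95% interval -3.17 to 0.71). CHAR and ANG differed by -0.41 (95% interval -1.71 to 0.88) for CIDEA and by -0.15 (95% interval -2.09 to 1.80) for G0S2. Single steers moved the KC differences. Without F23 the difference of KC to ANG was -0.44 for CIDEA, and without F7 it was -0.77 for G0S2. For the difference of KC to CHAR, CIDEA ran from -0.88 without F46 to -0.25 without F47, and G0S2 reached -0.62 without F7 and -0.72 without F48. All the intervals of the full fit include 0, and they are wide enough to include an effect as large in the other breeds as in KC. Averaged over the 3 breeds, the log2FC of L-RFI against H-RFI was -0.51 for CIDEA (standard error 0.25, 95% interval -1.03 to 0.01, adjusted p = 0.356) and -0.71 for G0S2 (standard error 0.37, 95% interval -1.49 to 0.06, adjusted p = 0.387) in edgeR's quasi-likelihood test. That test called 0 genes (0%), with 2019 at an unadjusted p under 0.05, and DESeq2 called 40.

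**Figure D2:**
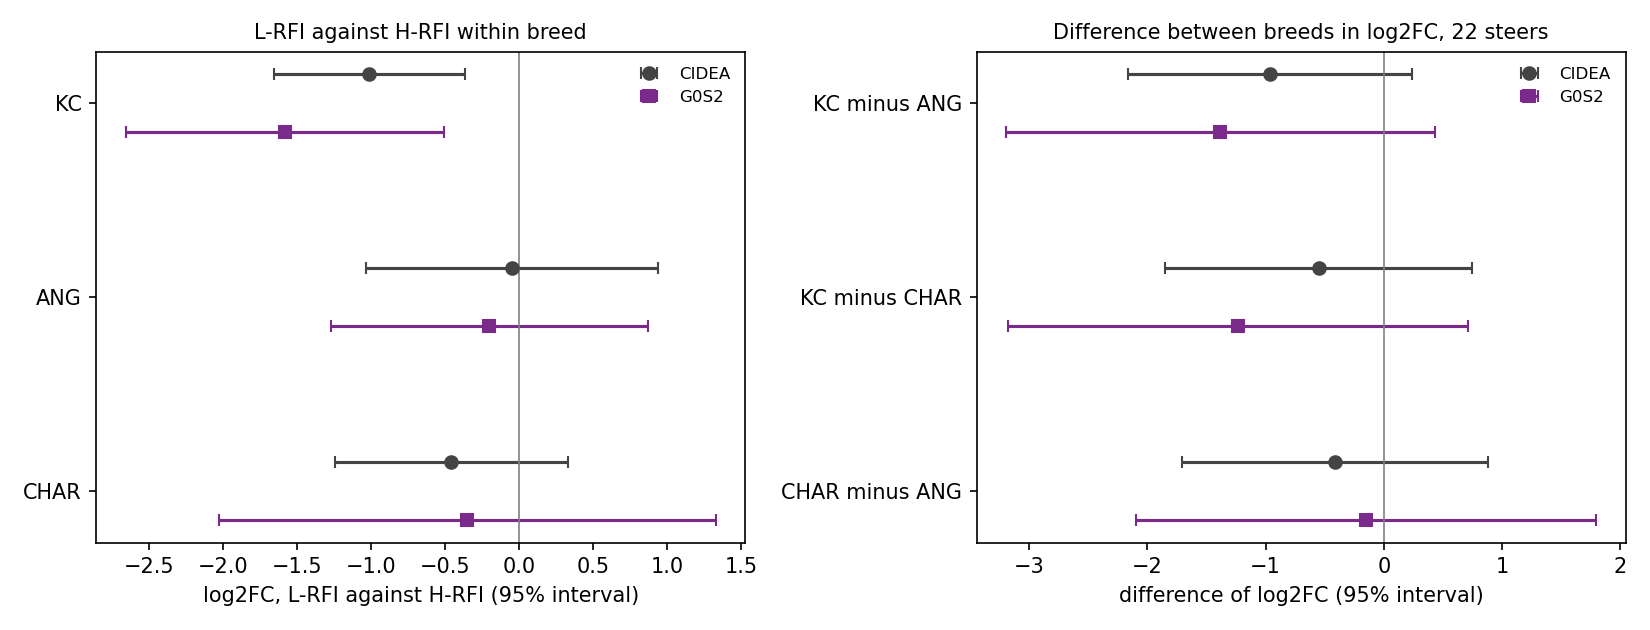
On the left the log2FC of L-RFI against H-RFI within each breed, and on the right the difference of this log2FC between pairs of breeds, for CIDEA (circles) and G0S2 (squares) with 95% intervals from edgeR's quasi-likelihood fits. The KC intervals on the left lie below 0 (-1.66 to -0.36 and -2.66 to -0.51), and all intervals on the right include 0.

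From the lowest to the highest of the 22 steers, CIDEA spanned 5.88-fold and G0S2 28.7-fold. Inside the groups both genes varied more than most genes did. The SD of log2 CPM inside the 6 groups was 0.66 for CIDEA and 1.08 for G0S2. Of the 14048 genes, 89.6% had a smaller within-group SD than CIDEA and 97.9% a smaller one than G0S2 (median 0.27). Among the 4516 genes whose mean level was within a factor of 2 of CIDEA, 98.0% had a smaller SD, and among the 2792 such genes for G0S2, 99.5% did. The lowest G0S2 levels came from F28, F48 and F16, which belong to 3 different groups, whereas the 5 lowest CIDEA levels (F46, F24, F16, F10 and F25) were all of L-RFI steers.

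No relation between CIDEA and G0S2 was detected among the steers. Over the 22 steers Pearson's r of log2 CPM was 0.12 (permutation p = 0.582) and Spearman's rho -0.0017 (permutation p = 0.996). With the values centred within the 6 groups, r was 0.0054 (permutation p = 0.975) and rho 0.02 (permutation p = 0.909). Without F24 and F46, the steers farthest from the median of CIDEA, r was 0.25 pooled and 0.19 centred. Within the 16 libraries with the higher share of ambiguous reads r was 0.14 pooled and -0.06 centred, and within the 6 others it was 0.08 pooled (exact permutation p = 0.896). F46 joined the lowest CIDEA with a high G0S2 level (161 CPM), F28 joined the lowest G0S2 with 56.0 CPM of CIDEA, and F7 was high and F16 low for both.

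**Figure D3:**
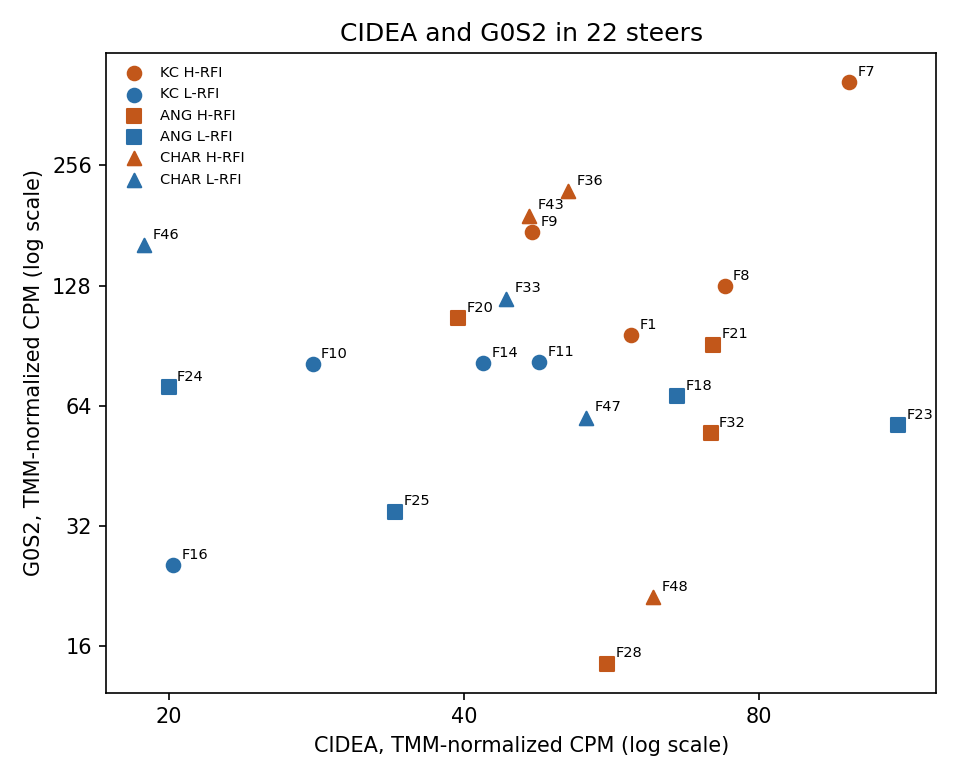
CIDEA against G0S2 in TMM-normalized CPM (both axes logarithmic) in the 22 steers, with H-RFI in orange, L-RFI in blue, circles for KC, squares for ANG and triangles for CHAR. The points show no common trend (Pearson's r of 0.12), with F46 at 18.9 CPM of CIDEA and 161 of G0S2 and F28 at 56.0 and 14.4.

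H-RFI and L-RFI steers form separate clusters of RFIfat, so the relation with RFIfat was computed inside each, centred within breed. For these relations the centred values were permuted across the breeds and not inside them. This takes no account of the breed means removed, so that the permutation p may be too small. Among the 11 H-RFI steers the correlation of CIDEA with RFIfat was negative, with an unadjusted p under 0.05 for r but not for rho (Pearson's r = -0.61, permutation p = 0.0435, and Spearman's rho = -0.54, permutation p = 0.0926). The p of r became 0.261 when adjusted over the 6 relations computed, and that of rho 0.556. Without F7 and F9, the steers farthest from the median of RFIfat, r was -0.18, over a narrower range of RFIfat. Among the L-RFI steers r was 0.10 for CIDEA (permutation p = 0.768, adjusted 0.921) and rho 0.18 (permutation p = 0.594, adjusted 0.890). For G0S2 r was -0.26 in H-RFI (permutation p = 0.439, adjusted 0.872) and -0.18 in L-RFI steers (permutation p = 0.579, adjusted 0.872), with rho of -0.35 and -0.25 (permutation p = 0.287 and 0.450, adjusted 0.861 and 0.890). Leaving out the 2 steers farthest from the RFIfat median in each case, r was 0.03 for CIDEA in L-RFI steers, and -0.15 and -0.49 for G0S2 in H-RFI and L-RFI steers.

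**Figure D4:**
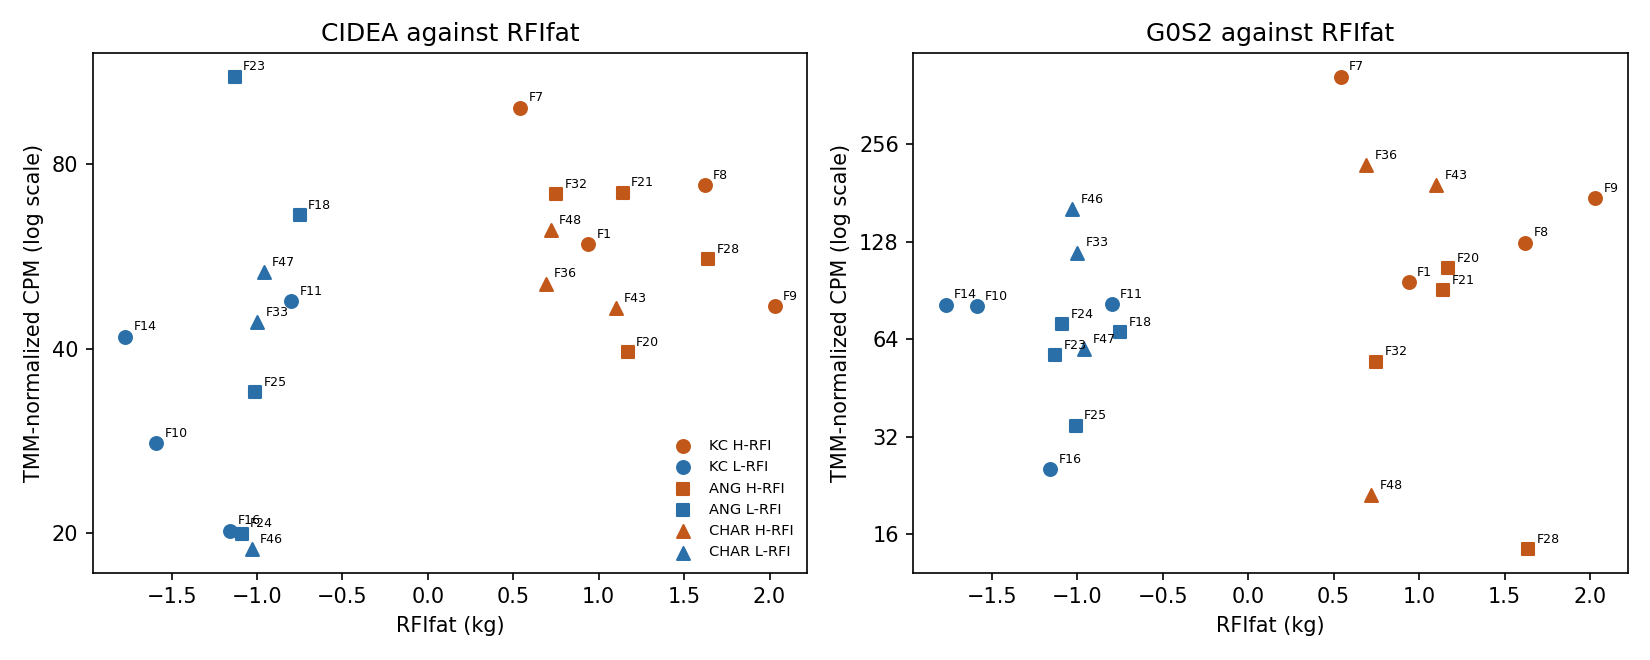
TMM-normalized CPM (logarithmic axis) of CIDEA on the left and G0S2 on the right against RFIfat in kg in the 22 steers, with colours for RFI group and symbols for breed. H-RFI and L-RFI steers lie apart on the horizontal axis. Among the H-RFI steers F7 has the highest CIDEA level (98.7 CPM) and the lowest RFIfat (0.54 kg), F9 the highest RFIfat (2.03 kg) with 46.9 CPM, and F20 the lowest CIDEA level (39.4 CPM) at 1.17 kg.

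Of 70 genes of lipid droplets and fat synthesis, 9 could be matched to a symbol, CIDEA and G0S2 included, and all 9 came from the study's own table of DE genes in these steers, so that their direction is not independent evidence. No perilipin and no gene of triglyceride synthesis and droplet formation could be matched (0 of 5 and 0 of 10), and CIDEA was the single match of 3 CIDE genes, as was G0S2 of 12 genes of lipolysis and its control. Of the other 7 genes, 5 had an unadjusted p under 0.05 and were lower in L-RFI steers of KC and 1 was higher, against 9.34% and 8.90% of all genes tested. Their median log2FC in KC was -1.03, and none was called by the quasi-likelihood test. In the group of other droplet proteins (3 of 10 matched), the sterol synthesis enzymes SQLE and LSS had a log2FC of -1.31 and -1.03 in KC (standard errors 0.31 and 0.22), and the droplet dehydrogenase HSD17B11 had 1.08 (standard error 0.28). In the fatty acid synthesis group (2 of 7), the log2FC in KC was -1.36 for ACLY, which makes cytosolic acetyl-CoA (standard error 0.48), and -1.03 for SLC25A1, the citrate carrier that feeds it (standard error 0.25). SREBF1, a transcription factor of lipid synthesis genes (1 of 12 regulators matched), had -1.14 (standard error 0.22). The RFI groups of KC did not overlap for SREBF1, LSS, SLC25A1 and SQLE, all lower in L-RFI, nor for HSD17B11, which was higher, as was so for 5.60% and 5.52% of all genes tested. The margin was narrow for SQLE, with F11 at 26.54 CPM just under F9 at 26.56, and for HSD17B11, with F9 at 16.99 CPM just under F16 at 17.17. In ANG these 7 genes had a median log2FC of 0.19, with a log2FC of 0.61 for SLC25A1 (adjusted p = 0.979 by edgeR), and in CHAR a median of 0.01. In CHAR the log2FC of SREBF1 was 0.55 (standard error 0.21, adjusted p = 0.948 by edgeR), which did not pass the test. COX8B, of the thermogenic genes that CIDEA is often listed with (1 of 11 matched), had a log2FC of -1.33 in CHAR (standard error 0.27, adjusted p = 0.935 by edgeR), which did not pass either, and -0.07 in KC and 0.65 in ANG. The RFI groups of CHAR did not overlap for COX8B, which was lower in L-RFI, as was so for 4.95% of all genes tested.

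**Figure D5:**
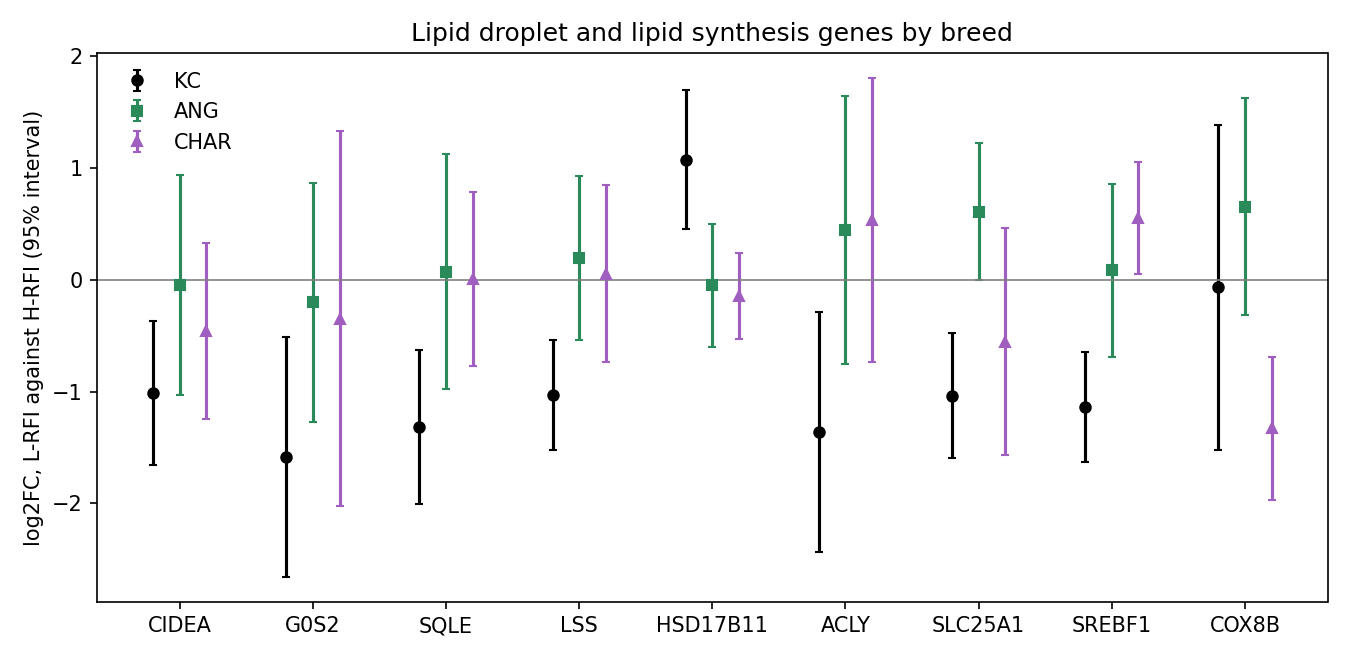
The log2FC of L-RFI against H-RFI with 95% intervals from edgeR's quasi-likelihood fits in KC (circles), ANG (squares) and CHAR (triangles) for CIDEA, G0S2 and the 7 other matched genes. In KC the intervals of all but HSD17B11 (1.08) and COX8B (-0.07) lie below 0, and in ANG and CHAR those of CIDEA and G0S2 include 0.

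Among genes with a symbol, those whose level followed CIDEA and G0S2 most closely inside the 6 groups were different for each. Among 222 genes with a symbol that passed the filter in all 3 breeds, SQLE, LSS, TM7SF2 and SLC25A1 were among the 5 most like CIDEA, with Pearson's r of 0.79, 0.79, 0.78 and 0.77 over the 22 steers after centring within groups. The 5 most like G0S2 were PDK4, SLC25A25, SREBF1, TF and YDJC, with r of 0.56, 0.56, 0.50, 0.48 and 0.45. Over all 13339 genes PDK4, SLC25A25, TF and YDJC came only at places 180, 186, 477 and 598. Being centred within groups, the r do not give the direction of a gene between RFI groups. SREBF1 had r of 0.56 with CIDEA, at place 423 of 13339 genes, and of 0.50 with G0S2, at place 375. G0S2 came at place 6393 in likeness to CIDEA. These are descriptions, since the genes with symbols were chosen by the study on these steers.

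Over all genes, with or without a symbol, ENSBTAG00000047609 was by far the closest to CIDEA (r = 0.98, the next gene 0.87), a gene singled out after its values were seen. It had 1.16 to 1.72 reads for each read of CIDEA in every steer (median 1.46). Its log2FC was -1.01 in KC, 0.02 in ANG and -0.45 in CHAR (standard errors 0.33, 0.47 and 0.36), beside -1.01, -0.05 and -0.46 for CIDEA. Reads that fell on both gene models would be among the ambiguous reads and not in either count. Whether it shares sequence with CIDEA was not tested. In the RefSeq annotation of ARS-UCD2.0, a later build than the one the reads were aligned to, CIDEA lies between IMPA2 and TUBB6 and overlaps 1 unnamed gene. The count of CIDEA may be uncertain for this reason, which was not tested. In the same annotation G0S2 lies between HSD11B1 and LAMB3 and overlaps no gene. TUBB6, the neighbour of CIDEA, had a log2FC of -1.16 in KC, -0.46 in ANG and -0.59 in CHAR (standard errors 0.26, 0.30 and 0.27), with an adjusted p of 0.126 in KC by edgeR's quasi-likelihood fit. TUBB6 could be looked up only because the study's table of DE genes in these steers lists it. Its values are therefore not independent evidence on the neighbourhood of CIDEA. IMPA2, the other neighbour, had no identifier with a symbol. The closest gene to G0S2 over all genes (ENSBTAG00000020434, without a symbol) had r = 0.85 and a log2FC of -0.19 in KC (standard error 0.18).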

How the data were processed

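Backfat RNA was depleted of ribosomal RNA, made into stranded libraries and sequenced as paired reads. After trimming, the authors aligned reads to UMD3.1 by TopHat2 2.0.9 and deposited raw read counts per Ensembl gene from HTSeq-count 0.6.1, 1 column per steer. The annotation version and the strand setting were not given in the sources used here. The 5 summary lines were left out of library sizes. No columns were identical.

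L-RFI was set against H-RFI in each breed by edgeR 4.0.16 in R 4.3.3 (glmQLFit and glmQLFTest, TMM) for genes over 1 CPM in 50% or more of a breed's steers, with Benjamini-Hochberg adjustment over all genes tested. Breed, interaction and the RFI effect over the breeds were tested in 1 fit of 22 steers with 6 group means. Log2 CPM had an offset of 0.5 counts. Correlations used 100000 resamples, or all orders for 6 steers. Values centred within the 6 groups were permuted inside the groups, and values centred within breed were permuted across the breeds. Alternatives were the exact and likelihood ratio tests, DESeq2 1.42.0, RLE factors, no low-count filter, RFIfat as regressor, and leaving out each steer. Calculations outside R used python 3.11.15. The fits were tested on simulated data. Symbols for 242 identifiers came from a supplementary table of the study. Named genes were CIDEA, G0S2, the matched genes of the lists, SREBF1, and the 5 genes with a symbol most like each member. Some of these genes and markers are not reported here. The members and lists were chosen with earlier results of these data known.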

Additional observations from a re-analysis of the deposited data

Results flagged for a closer look

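In the L-RFI steers of KC, F16 had 25.5 CPM of G0S2 while the other 3 steers lay between 81.2 and 82.1 CPM, a gap of 0.985 of the range of the group. It was set apart as a steer far from the rest of its group, by a gap above the 95% critical value of Dixon's test for 4 values. This was the only such steer among the 8 combinations of CIDEA or G0S2 with a group of 4 steers (the CHAR groups of 3 were not examined). For normally distributed values, chance alone sets a steer apart in about 1 in 20 groups, and this rate holds for each of the 8 and not for the whole search. The steer F16 was also the lowest KC steer for CIDEA, at 20.2 CPM. Without F16 the log2FC of G0S2 in KC was -1.31. For neither gene did the RFI effect differ between breeds at the FDR limit.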

How the results depend on the processing

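The log2FC of CIDEA and G0S2 in KC stayed negative under all 9 alternatives for each gene (-1.03 to -0.82 and -1.60 to -1.18) and without each steer in turn (-1.21 to -0.79 and -1.82 to -0.97). The call was gained under 4 of them. CIDEA and G0S2 had -1.01 and -1.58 in the exact test of edgeR, with either dispersion estimate, in the likelihood ratio test and in DESeq2. The number of genes called in KC, 1 in the quasi-likelihood test, was 175 in the exact test, 177 in that test with common and tagwise dispersions (chosen after the data were seen), 189 in the likelihood ratio test, 165 in DESeq2, 108 with all 22 steers in the fit, 0 with RFIfat as regressor, 0 with the ambiguous-read split as a term (also chosen after the data were seen), and 0 to 54 without each steer, the highest without F11. In ANG it was 28, 46, 31 and 32 in those 4 tests and 0 to 1 without each steer, and in CHAR 20, 39, 21 and 23, 1 with all 22 steers in the fit, and 0 to 1 without each steer. DESeq2 called 40 genes for RFI over the breeds, 96 for CHAR against ANG and 91 for KC against ANG, and with the split as a term 17 were called for CHAR against ANG. The quasi-likelihood test called 0, 34 and 59 genes in these comparisons with all steers, and 0 to 29, 0 to 67 and 24 to 127 without each steer in turn. For CHAR against KC it called 253, and 176 to 370 without each steer.

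The near-zero differences changed sign. In ANG CIDEA had 0.0019 with RFIfat as regressor and 0.012 with the split as a term, where G0S2 had 0.30, and in CHAR against KC G0S2 had -0.081 with the split. Without each steer in turn the log2FC ran from -0.57 to 0.24 for CIDEA and -0.54 to 0.12 for G0S2 in ANG, from -0.75 to -0.13 and from -0.86 to 0.094 in CHAR (the highest for G0S2 without F36), from -0.52 to -0.11 for CIDEA in CHAR against ANG and from -0.40 to 0.0018 in KC against ANG (both highest without F23), and from -0.26 to 0.056 for CIDEA and -0.094 to 0.43 for G0S2 in CHAR against KC. The KC minus ANG difference of the RFI effect ran from -1.25 to -0.44 for CIDEA and from -1.70 to -0.77 for G0S2, and that of KC minus CHAR from -0.88 to -0.25 and from -1.67 to -0.62. The CHAR minus ANG difference ran from -0.71 to 0.11 for CIDEA and from -0.66 to 0.29 for G0S2.

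Pearson's r of CIDEA with G0S2 was -0.28 pooled and -0.22 centred without KC, 0.35 and 0.24 without CHAR, 0.33 and 0.033 without ANG, -0.063 centred within the 16 libraries with more ambiguous reads, and without each steer -0.038 to 0.24 pooled and -0.11 to 0.094 centred. The r of CIDEA with RFIfat in H-RFI steers was -0.18 without the 2 farthest steers and -0.76 to -0.39 without each steer. Its unadjusted p, from permutation across the breeds and perhaps too small, rose above 0.05 without F7, F9, F32, F36, F43 or F48. In L-RFI steers it ran from -0.15 to 0.27. The r of G0S2 with RFIfat ran from -0.47 (without F48) to -0.031 (without F7) in H-RFI steers, and from -0.58 (without F11) to -0.0081 (without F16) in L-RFI steers, with no unadjusted p under 0.05. The cause of these changes was not tested.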
